A study of Mus musculus with 3 samples.

Results

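The genes described here are 39 genes of mitosis and the spindle, taken by symbol from a list of 39 names out of 27998 genes in single-cell RNA counts of neonatal mouse testis. All 39 symbols were found, on 16 chromosomes. The study profiled whole dissociated testes of males on postnatal day 3 (the protocol gives 3.5 days post partum) with 1 droplet library per genotype: Cdk2-Y15S, in which both Cdk2 alleles carry the YS change (Cdk2 YS/YS), Cdk2-HET with 1 such allele (Cdk2 +/YS), and Cdk2-WT (Cdk2 +/+). Cdk2 is a cyclin-dependent kinase of the G1 to S transition, and tyrosine 15 is a site of its inhibitory phosphorylation. All 3 genotypes were bred from Cdk2 +/YS mice on a background of B6(Cg)-Tyrc-2J/J mixed with FVB/NJ and were untreated, and the labels do not say how many animals entered each library. With 1 library per genotype no difference between genotypes has a replicate check, no p-value is given, and every interval below is a 95% interval for counting error only. Genotype, animal and library cannot be told apart.

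Cells enter mitosis when Cdk1 bound to its B-type cyclins becomes active, with Polo and Aurora kinases acting beside it. Kinetochore proteins then join centromeres to spindle microtubules, the spindle checkpoint holds the anaphase-promoting complex (APC/C) back until all chromosomes are attached, and Cdc20 and Ube2c let that complex mark securin and cyclin B for destruction. The midzone proteins afterwards build the site at which the daughter cells part. In the neonatal testis Sertoli cells divide, as do the mesenchymal cells around the tubules, while the germ cells, called gonocytes or prospermatogonia, pass from a resting state back into the cell cycle in the days after birth.

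Transcripts of this kind accumulate in G2 and mitosis, and many of their promoters carry a cell cycle homology region (CHR) near CCAAT boxes. Of the 39 members, 35 had an entry in the RefSeq promoter table (build GRCm38.p6), which spans 250 bases before to 50 bases after the transcript start; Kif20a, Aurkb, Incenp and Tpx2 had none. The CHR was searched as the word TTTGAA, as its reverse complement TTCAAA and as the palindrome TTTAAA, and the CCAAT box as the word CCAAT or its reverse complement ATTGG, so that both strands were covered; a CHR word and a CCAAT word can share the letter at which they meet. For each gene symbol only the first promoter entry was searched. A CHR word was present in 27 of 35 members (77.1%), against 7519 of all 27025 genes in the table (27.8%). A CCAAT word was present in 25 of 35 members (71.4%), against 37.9% of all genes. Both stood in 23 of 35 members (65.7%), against 10.9% of all genes, and more than 1 CCAAT word in 17 of 35 (48.6%), against 12.2%. These are matches of letters, with no measurement of binding. The 150 bases before the RefSeq start are shown, 5′ to 3′ on the gene's strand, for the genes of mitotic entry and anaphase to which the results below return, with CHR and CCAAT words in capitals: Ccnb1 (chr13:100786487-100786636, minus strand), Ccnb2 (chr9:70421555-70421704, minus), Cdk1 (chr10:69352913-69353062, minus), Plk1 (chr7:122159285-122159434, plus), Cdc20 (chr4:118437344-118437493, minus) and Ube2c (chr2:164769779-164769928, plus).
Ccnb1: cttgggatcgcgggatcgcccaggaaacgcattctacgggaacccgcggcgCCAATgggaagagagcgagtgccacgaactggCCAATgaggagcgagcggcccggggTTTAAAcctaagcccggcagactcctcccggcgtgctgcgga
Ccnb2: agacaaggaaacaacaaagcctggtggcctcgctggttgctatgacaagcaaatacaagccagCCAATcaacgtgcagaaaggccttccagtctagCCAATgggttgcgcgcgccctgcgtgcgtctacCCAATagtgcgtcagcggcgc
Cdk1: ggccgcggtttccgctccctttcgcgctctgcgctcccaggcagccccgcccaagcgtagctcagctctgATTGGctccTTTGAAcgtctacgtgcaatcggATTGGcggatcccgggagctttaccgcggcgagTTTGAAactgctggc
Plk1: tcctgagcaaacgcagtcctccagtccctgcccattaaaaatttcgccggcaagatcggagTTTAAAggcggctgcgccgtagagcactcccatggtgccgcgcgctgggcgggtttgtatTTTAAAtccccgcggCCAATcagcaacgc
Cdc20: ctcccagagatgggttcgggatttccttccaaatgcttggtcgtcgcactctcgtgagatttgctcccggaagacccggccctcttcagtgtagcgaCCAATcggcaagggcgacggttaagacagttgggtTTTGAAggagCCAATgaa
Ube2c: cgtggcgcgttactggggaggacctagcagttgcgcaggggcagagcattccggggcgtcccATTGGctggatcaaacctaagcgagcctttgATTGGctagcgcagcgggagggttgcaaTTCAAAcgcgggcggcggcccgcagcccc
All but Ccnb2 hold a CHR word in this window, and Ccnb2 holds CCAAT in 3 places.

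Levels are given as unique molecular identifiers (UMIs) of a gene per 1000000 UMIs of the same cells (CPM). Each UMI counts 1 captured 3′ end, so levels of different genes are not scaled by length. The Cdk2-Y15S, Cdk2-HET and Cdk2-WT libraries held 4403, 4958 and 5061 cell barcodes with 28651691, 32025077 and 30624473 UMIs. Of 14335 distinct barcode sequences, 87 occurred in 2 libraries and 0 in all 3. Germ cells are the 141 cells of the authors' deposited germ clusters A to E (72 Cdk2-Y15S, 69 Cdk2-WT, with no Cdk2-HET cells in that table). Somatic classes were set by marker UMIs: Sertoli cells by Amh, Sox9, Cldn11 and Inha with at most 2 UMIs of 4 collagen and matrix genes, and stromal and peritubular myoid cells by collagen transcripts, split on the smooth muscle genes Acta2, Myh11 and Tagln. The classes carried their own markers: 8 of 8 Sertoli markers were detected in Sertoli cells of each library, summing to 7449, 6936 and 6783 CPM in Cdk2-Y15S, Cdk2-HET and Cdk2-WT cells, against 401, 338 and 253 CPM in stromal cells. In germ cells 6 of 6 germ markers summed to 2218 CPM (Cdk2-Y15S) and 2377 CPM (Cdk2-WT).

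To hold apart how many cells express the list and how strongly, each cell was thinned at random to 3000 UMIs, and a cell with 5 or more of these 3000 from the 39 members is called list-high. Shares of list-high cells therefore compare cells of equal depth, and cells with fewer than 3000 UMIs were left out of them. That removed 98 of 1510, 220 of 2110 and 281 of 2378 Sertoli cells in Cdk2-Y15S, Cdk2-HET and Cdk2-WT, 152 of 1681, 96 of 1595 and 234 of 1497 stromal cells, 42 of 724, 23 of 834 and 29 of 653 myoid cells, and 0 deposited germ cells. The loss was uneven between libraries, and its part in the shares was not tested. Fetal Leydig cells were taken as cells with 20 or more UMIs of Cyp17a1, Cyp11a1, Hsd3b1, Insl3 and Star that did not pass the Sertoli rule. Stromal and myoid cells were not left out of them, and the overlap was not counted. Fetal Leydig cells, used as a class with little division, gave 4 of 44, 3 of 35 and 3 of 28 list-high cells in Cdk2-Y15S, Cdk2-HET and Cdk2-WT, or 9.09% (2.53 to 21.7), 8.57% (1.80 to 23.1) and 10.7% (2.27 to 28.2). The list stood at 759, 605 and 1627 CPM over all 44, 35 and 34 fetal Leydig cells. Their median depths were 8067, 8772 and 7167.5 UMIs per cell, against 4954 to 6298 UMIs in Sertoli, stromal and myoid cells. Shares within their intervals cannot be told apart from those of this class, whose few list-high cells set no level of background. In cells below the threshold the list averaged 0.785 to 1.37 UMIs of 3000 in Sertoli, stromal and myoid cells and 0.675 to 0.800 in fetal Leydig cells.

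In germ cells the list was higher in the Cdk2-Y15S library. The 39 genes summed to 5106 CPM (4988 to 5226) in Cdk2-Y15S germ cells and 3491 CPM (3387 to 3598) in Cdk2-WT germ cells, a log2 ratio of 0.55 (0.49 to 0.60). Single cells ran between 2018 and 8513 CPM with a median of 4877 in Cdk2-Y15S, and between 721 and 10252 CPM with a median of 2835 in Cdk2-WT, so the cells overlapped. Of the 39 members, all with at least 50 UMIs over both libraries, 36 had ratios above 0, with a median log2 ratio of 0.52 against -0.02 over all 6796 genes with as many UMIs. Ratios of 1.5-fold or more, called here from the size alone, were seen upwards in 13 members and downwards in 0, where 11.7% of all genes were higher by as much and 15.1% lower. The counting interval lay above 0 in 19 members, where that of 17.7% of all genes did, and below 0 in 0 members, where that of 18.7% did.

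How the difference divided between the share of cells and the level per cell depended on the threshold. At 5 UMIs, all 72 Cdk2-Y15S germ cells were list-high (100%, exact interval 95 to 100), against 57 of 69 Cdk2-WT germ cells (82.6%, 71.6 to 90.7). List-high cells averaged 15.1 list UMIs of 3000 in Cdk2-Y15S and 11.8 in Cdk2-WT, a log2 ratio of 0.35. At a threshold of 3 the shares differed by 4.35 percentage points with a level ratio of 0.50, and at 10 by 39.6 points with a level ratio of 0.045. Median depths were 18461.5 UMIs per cell in Cdk2-Y15S and 16653 in Cdk2-WT, and median mitochondrial shares 10.2% and 11.4%. With 35 Cdk2-Y15S and 24 Cdk2-WT cells at a mitochondrial share of at most 10%, the list ratio was 0.84.

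By role, the anaphase genes differed most and the spindle microtubule genes least. The 3 anaphase genes summed to 485 CPM in Cdk2-Y15S and 249.8 CPM in Cdk2-WT, a log2 ratio of 0.95 (0.76 to 1.16). Ube2c, the E2 ubiquitin-conjugating enzyme of the APC/C, stood at 319.7 CPM in Cdk2-Y15S and 139 CPM in Cdk2-WT, with a log2 ratio of 1.20 (0.94 to 1.46). Cdc20, the APC/C activator, had 106 CPM in Cdk2-Y15S and 64.3 CPM in Cdk2-WT, a log2 ratio of 0.71 (0.31 to 1.13). Pttg1, which encodes securin, differed less, with 59.2 and 46.2 CPM and an interval that spans 0 (-0.15 to 0.88).

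Among the 6 genes of cyclins, Cdk1 and entry kinases (log2 ratio of the sum 0.62), Cks2, a small Cdk-binding subunit and the highest member of the whole list, had 803 CPM in Cdk2-Y15S and 558 CPM in Cdk2-WT. Ccnb1, cyclin B1, had 159 CPM in Cdk2-Y15S and 84.1 CPM in Cdk2-WT (log2 ratio 0.92, 0.58 to 1.27), and Ccnb2 155 and 86.6 CPM. The Polo kinase gene Plk1 had 55.7 and 26.4 CPM (1.06, 0.47 to 1.72) and Aurka, the spindle pole Aurora kinase, 54.2 and 31.3 CPM. Cdk1 itself differed less, at 106 CPM in Cdk2-Y15S and 82.4 CPM in Cdk2-WT, and its interval reaches 0 (-0.02 to 0.74).

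The chromosomal passenger complex, which corrects faulty attachments and later moves to the midzone, held the member with the highest ratio. Its kinase Aurkb had 82 UMIs (58.5 CPM) in Cdk2-Y15S and 28 UMIs (23.1 CPM) in Cdk2-WT, a log2 ratio of 1.33 (0.71 to 2.02). Its partners Birc5 (survivin) and Cdca8 (borealin) stood at 188 and 269.8 CPM in Cdk2-Y15S, against 128 and 187 CPM in Cdk2-WT. The scaffold Incenp had 99.9 CPM in Cdk2-Y15S and 81.6 CPM in Cdk2-WT, with an interval that spans 0.

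Of the 11 kinetochore and checkpoint genes, Cenpa, the centromeric histone H3 variant, was the most abundant, at 528 CPM in Cdk2-Y15S and 363 CPM in Cdk2-WT. The large kinetochore protein gene Cenpf (0.73), the kinesin gene Cenpe (0.63), the checkpoint kinase gene Bub1b (0.86) and Knstrn (0.84), whose product small kinastrin sits at spindle and kinetochores, were past 1.5-fold. Bub1, another checkpoint kinase, was level at 44.2 CPM in Cdk2-Y15S and 44.5 CPM in Cdk2-WT, as was the Ndc80 complex subunit gene Spc25 (127 and 124 CPM). The interval of Spc25 (-0.29 to 0.35) still allows modest change either way.

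The 7 spindle microtubule genes summed to 367 CPM in Cdk2-Y15S and 321 CPM in Cdk2-WT, a log2 ratio of 0.19 with an interval of 0.0011 to 0.39. Tacc3, a spindle-stabilising protein gene, was the only one of them past 1.5-fold, at 68.5 and 40.4 CPM. Tpx2, an Aurora A activator gene and the most abundant of the 7, had 78.5 CPM in Cdk2-Y15S and 67.6 CPM in Cdk2-WT. Ckap2 (47.1 and 49.5 CPM) and Nusap1 (39.2 and 40.4 CPM), both encoding microtubule-binding spindle proteins, had the lowest ratios of the list with Bub1. In the midzone group Prc1, which bundles antiparallel microtubules, had 131 CPM in Cdk2-Y15S and 53.6 CPM in Cdk2-WT, a log2 ratio of 1.28 (0.87 to 1.72), while the centralspindlin genes Kif23 and Racgap1 had 0.02 and 0.14. Top2a, the topoisomerase that untangles chromatids, had 270.5 CPM in Cdk2-Y15S and 209 CPM in Cdk2-WT (0.37), and the proliferation marker Mki67 112 and 97.3 CPM (0.20, -0.15 to 0.56).

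The deposited germ clusters divided these values sharply. Cluster A, 36 cells that all came from the Cdk2-WT library, had the list at 1769 CPM (1664 to 1879), whereas the other clusters ran from 4129 to 5633 CPM in either library. The clusters were made by the authors from the expression of these same cells, so the contrast between them is a description and no test. Cells ran between 721 and 3858 CPM in cluster A. Outside it, 23 of 105 germ cells (16 Cdk2-Y15S, 7 Cdk2-WT) lay below the highest cluster A cell, so the split was not complete.

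**Figure D1:**
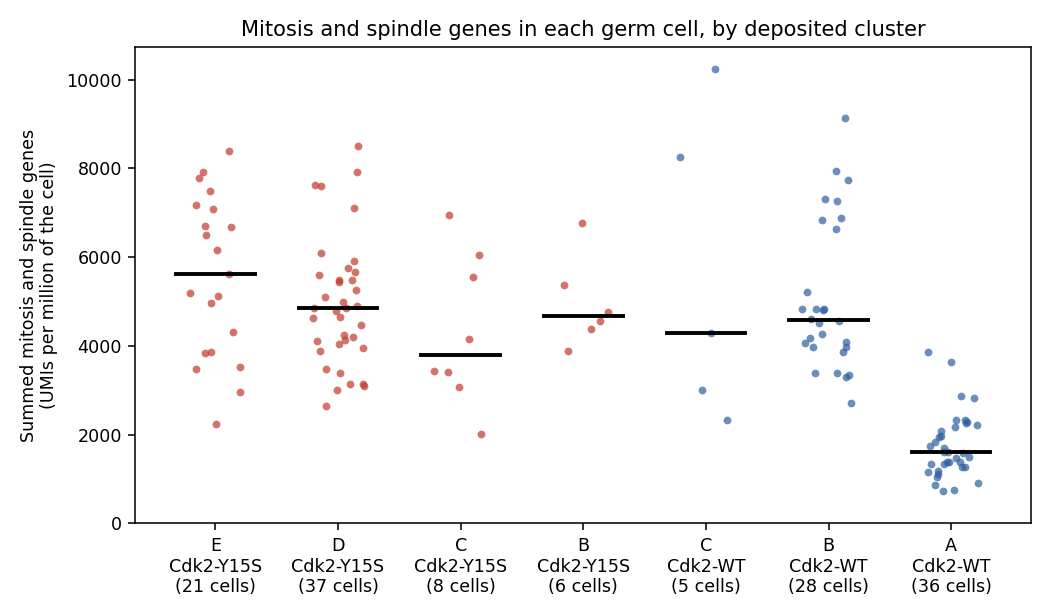
Summed mitosis and spindle genes in each of the 141 deposited germ cells (vertical axis, CPM of the cell), by deposited cluster and library, Cdk2-Y15S on the left in red and Cdk2-WT on the right in blue. Points are cells and bars are medians; cluster A has a median of 1598, and the medians of the other groups lie between 3795 and 5609.

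When cluster A was left out, the difference between the libraries in list level was no longer seen. This setting was chosen after seeing the data and removes only Cdk2-WT cells, with the list at 1769 CPM. The Cdk2-WT level therefore had to rise, and the lost difference is a description and no test. The list stood at 5106 CPM in the 72 Cdk2-Y15S cells and 5144 CPM in the remaining 33 Cdk2-WT cells, a log2 ratio of -0.01 (-0.07 to 0.05). The median member ratio was -0.0039, with 19 members above 0 and 20 below. Of the 7 roles, 3 still had intervals that exclude 0. The anaphase genes remained higher, at 485 CPM in Cdk2-Y15S and 368 CPM in Cdk2-WT (0.39, 0.18 to 0.62), the spindle microtubule genes were lower (367 and 483 CPM, -0.40, -0.61 to -0.19), and Mki67 with Top2a was lower (383 and 528 CPM, -0.47, -0.67 to -0.26). Outside cluster A, 3 of 39 members were higher by 1.5-fold or more, where 11.2% of all genes were. Lower by as much were 6, where 11.3% were. These counts are not far from the shares over all genes, so nothing is read from them. The 3 higher ones were Knstrn (0.81), Prc1 (0.71) and Tacc3 (0.69). The 6 lower ones were Nusap1 (-0.76), Hmmr (-0.73), Bub1 (-0.69), Kif23 (-0.65), Kif2c (-0.64) and Mki67 (-0.61). Hmmr encodes a spindle assembly factor and Kif2c a microtubule-depolymerising kinesin.

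Clusters B and C, the only ones with cells of both libraries, held few Cdk2-Y15S cells. In cluster B the list was at 4793 CPM in 6 Cdk2-Y15S cells and 5140 CPM in 28 Cdk2-WT cells, and in cluster C at 4129 CPM in 8 Cdk2-Y15S cells and 5180 CPM in 5 Cdk2-WT cells. Weighted equally, these gave a log2 ratio of -0.21, opposite in sign to that of all germ cells. In cluster B 19 members had at least 50 UMIs, of which 1, Prc1 (162 CPM in Cdk2-Y15S, 74.8 CPM in Cdk2-WT), was higher by 1.5-fold (6.76% of all genes were) and 3 lower (13.3%), and in cluster C 4 members did, with 0 higher (7.78%) and 2 lower (5.39%).

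Within Cdk2-WT, 24 members had at least 50 UMIs over clusters A and B, a limit that members low in A could pass through B alone. Of these 21 were lower in A by 1.5-fold or more, where 10.5% of all genes were, and since the limit shapes that count nothing is read from it. Mki67 had 20.2 CPM in A and 181 CPM in B, Top2a 53.9 and 348 CPM, and Ccnb1 25.2 and 142 CPM. Cks2 and Cdca8 kept more of their level, with 370.3 and 135 CPM in A against 766 and 253 CPM in B. Near-equal levels in A and B were found for Pttg1 (45.4 and 43.8 CPM), Ckap2 (42.1 and 51.1 CPM), Mad2l1, a checkpoint protein gene (57.2 and 71.1 CPM), and, with under 50 UMIs, Tacc3 (38.7 and 38.3 CPM) and Knstrn (26.9 and 25.5 CPM).

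Clusters D and E, with 37 and 21 cells that all came from Cdk2-Y15S, were set beside cluster B of Cdk2-WT. Cluster D over B had a list log2 ratio of -0.07 (-0.14 to 0.01), with Nusap1 (27.04 CPM in D, 63.8 CPM in B), Tpx2 (54.1 and 109 CPM), and Mki67 (92.2 and 181 CPM) lower, and Tacc3 (68.4 and 38.3 CPM) and Prc1 (129 and 74.8 CPM) higher. Of 34 members with at least 50 UMIs, 4 were higher by 1.5-fold, where 11.0% of all genes were. Lower were 5, where 10.1% were, shares close to those over all genes. Cluster E over B had 0.13 (0.057 to 0.21). Of 33 members with at least 50 UMIs, 6 were higher by 1.5-fold, where 13.8% of all genes were. Lower were 4, where 14.4% were, again not far from the shares over all genes. Those higher were Ube2c, Tacc3, Prc1, Plk1, Cdc20 and Aurka, and those lower Kif2c, Bub1, Kif11 and Mki67. Cluster E stood above D by 0.20 (0.12 to 0.27). Ube2c had 435 CPM in E and 253 CPM in D, Cdc20 145 and 93.8 CPM, and Tpx2 104 and 54.1 CPM. Of 32 members with at least 50 UMIs, 3 were higher by 1.5-fold, where 4.07% of all genes were, and 0 lower, where 5.25% were. Cells of E were deeper, with a median of 23755 UMIs against 16768 in D; the part of depth in this difference was not tested.

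**Figure D2:**
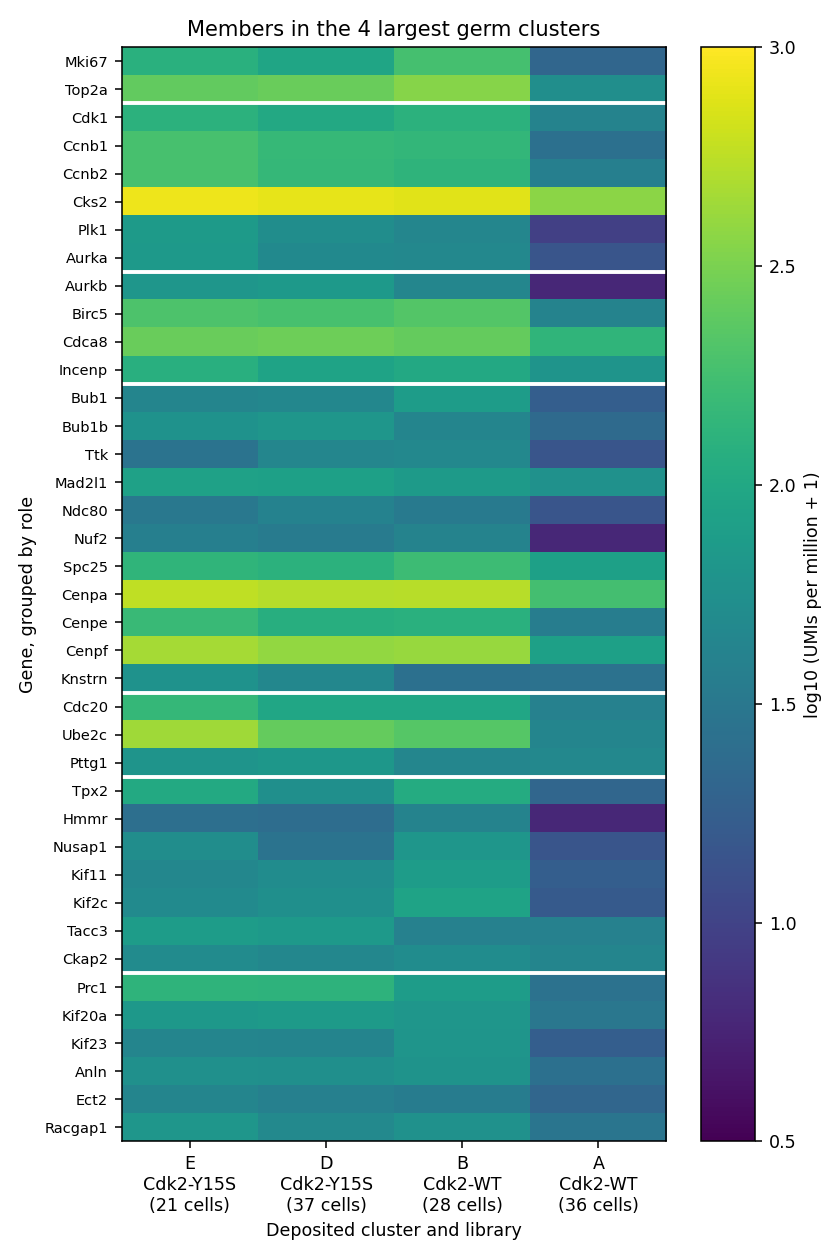
Level of each of the 39 members (rows, grouped by role in the order chromosome structure, entry, passenger complex, kinetochore, anaphase, spindle, midzone) in clusters E and D of Cdk2-Y15S and clusters B and A of Cdk2-WT (columns), as log10 of CPM plus 1. Column A is darker in most rows, with Mki67 at 20.2 against 181 CPM in B, while Pttg1, Tacc3 and Knstrn are near equal in A and B.

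Germ cells of the Cdk2-HET library were reached by markers instead, as cells with UMIs of at least 2 of Ddx4, Dazl and Mael and a mitochondrial share of at most 20%. This rule gave 115 Cdk2-Y15S, 66 Cdk2-HET and 123 Cdk2-WT cells, and the list stood at 4962, 3574 and 3431 CPM. It had no doublet or gene-count filter and did not leave out the deposited germ cells. Its values for Cdk2-Y15S and Cdk2-WT are therefore no separate reading, and the overlap was not counted. The somatic classes left out deposited germ cells only, so other cells that pass this rule, in Cdk2-HET all of them, were not kept out of those classes. Cdk2-Y15S over Cdk2-WT had a list log2 ratio of 0.53 (0.48 to 0.58), with 13 members higher by 1.5-fold and 0 lower, where 11.1% and 16.1% of all genes were. Cdk2-HET over Cdk2-WT had 0.06 (-0.01 to 0.12), with 0 members past 1.5-fold in either direction, where 5.63% of all genes were higher and 3.59% lower. Cdk2-Y15S over Cdk2-HET was 0.47 (0.41 to 0.53), with 13 members higher by 1.5-fold and 0 lower, where 8.95% and 15.8% of all genes were. List-high cells made up 99.1% (108 of 109), 73.8% (45 of 61) and 77.8% (91 of 117) of Cdk2-Y15S, Cdk2-HET and Cdk2-WT cells. Ube2c had 300 CPM in Cdk2-Y15S, 206 CPM in Cdk2-HET and 149 CPM in Cdk2-WT, a log2 ratio of 0.46 (0.17 to 0.75) for Cdk2-HET over Cdk2-WT. Ccnb1 had 173, 86.1 and 85.3 CPM in the same order.

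In Sertoli, stromal and myoid cells the list was highest in Cdk2-HET, and Cdk2-Y15S lay nearer to Cdk2-WT. In the fetal Leydig cells above it was lowest in Cdk2-HET and highest in Cdk2-WT. There 4, 3 and 3 list-high cells of Cdk2-Y15S, Cdk2-HET and Cdk2-WT held 65.4%, 69.4% and 81.0% of the thinned list UMIs. The median Leydig cell had 292, 197 and 190 CPM, so no order of libraries is read from that class. Sertoli cells had the list at 3264, 3734 and 3251 CPM in Cdk2-Y15S, Cdk2-HET and Cdk2-WT (1510, 2110 and 2378 cells). Stromal cells had 1575, 2200 and 1738 CPM (1681, 1595 and 1497 cells), and myoid cells 2459, 3062 and 2559 CPM (724, 834 and 653 cells). The Cdk2-Y15S over Cdk2-WT log2 ratio in Sertoli cells was 0.0057 (-0.014 to 0.026). For stromal cells it was -0.14 (-0.18 to -0.11), and for myoid cells -0.058 (-0.099 to -0.017). That of Cdk2-HET over Cdk2-WT was 0.20 (0.18 to 0.22), 0.34 (0.31 to 0.37) and 0.26 (0.22 to 0.30) in the same 3 classes.

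Shares and levels did not move together. In Sertoli cells 37.0%, 39.1% and 37.0% of Cdk2-Y15S, Cdk2-HET and Cdk2-WT cells were list-high, with 21.7, 23.6 and 22.7 list UMIs of 3000 per list-high cell. Stromal cells had 12.4% (10.8 to 14.1), 16.5% (14.6 to 18.5) and 16.5% (14.5 to 18.6) list-high cells with 25.1, 26.8 and 22.5 list UMIs each. In myoid cells 19.1% (16.2 to 22.2), 25.5% (22.6 to 28.7) and 26.6% (23.2 to 30.3) were list-high, with 28.3, 26.1 and 21.4 list UMIs each. In these libraries fewer Cdk2-Y15S than Cdk2-WT stromal and myoid cells were list-high, with differences of -4.11 (-6.80 to -1.44) and -7.54 (-12.2 to -2.88) percentage points. All 3 stromal shares lie within the wide fetal Leydig interval of their own library, as do the Cdk2-Y15S and Cdk2-WT myoid shares. Those intervals rest on 4, 3 and 3 list-high fetal Leydig cells in Cdk2-Y15S, Cdk2-HET and Cdk2-WT. These few cells averaged 12.75, 16.7 and 28.3 list UMIs of 3000, so they set no level of background, whose part in the shares was not tested. List-high Cdk2-Y15S cells had more list UMIs than those of Cdk2-WT. The log2 ratio was 0.41 (0.34 to 0.47) for the myoid class and 0.16 (0.10 to 0.22) for the stromal class. These intervals leave out the spread between cells, which ran between 5 and 78 list UMIs in list-high Cdk2-Y15S myoid cells. At a threshold of 3 UMIs the stromal ratio was 0.032. Cdk2-HET had shares near Cdk2-WT in both, with levels above it by 0.25 and 0.29. When list-high cells were picked with every other member of the list and the level was read from the rest, an alternative chosen after seeing the data, the Cdk2-Y15S over Cdk2-WT level ratio was 0.35 in myoid and 0.10 in stromal cells. In Sertoli cells it was 0.08 by that reading, against -0.06 with the full list.

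**Figure D3:**
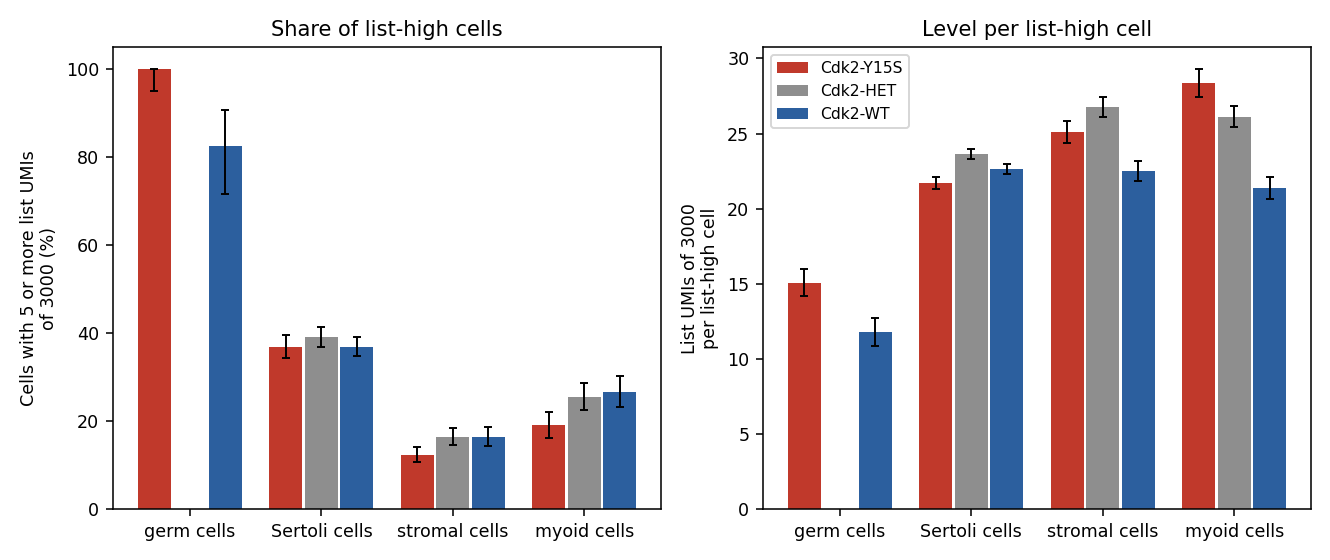
Left, share of list-high cells (5 or more list UMIs of 3000, in %); right, mean list UMIs of 3000 per list-high cell, in each class, with Cdk2-Y15S, Cdk2-HET and Cdk2-WT from left to right and 95% counting intervals (exact binomial, left; Poisson, right). Germ cells of Cdk2-HET are not in the deposited clusters; in myoid cells the Cdk2-Y15S bar is lowest on the left (19.1%) and highest on the right (28.3).

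Dividing the list-high cells by level showed where the myoid share differed. With 5 to 14 list UMIs of 3000 there were 6.01% of Cdk2-Y15S, 7.89% of Cdk2-HET and 12.3% of Cdk2-WT myoid cells. Between 15 and 29 there were 4.55%, 7.77% and 7.53%, and with 30 or more 8.50%, 9.86% and 6.73%. The intervals of Cdk2-Y15S and Cdk2-WT overlapped for cells with 30 or more (6.52 to 10.9 and 4.89 to 8.99) and did not for the lowest tier (4.35 to 8.07 and 9.86 to 15.2). In stromal cells the same tiers held 4.71%, 4.80% and 6.49%, then 3.07%, 4.67% and 5.30%, then 4.58%, 7.005% and 4.67% of Cdk2-Y15S, Cdk2-HET and Cdk2-WT cells. Sertoli cells showed no such shift, with 13.1%, 12.5% and 12.2% in the lowest tier and 10.3%, 13.7% and 10.8% in the highest.

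Genes of S phase gave a second reading of the same cells. Of 25 S phase genes (the MCM helicase, PCNA and others), all 25 had ratios below 0 in stromal cells of Cdk2-Y15S over Cdk2-WT. Their median log2 ratio was -0.65, against 0.03 over all 11007 genes with at least 50 UMIs. The list ratio was -0.64 (-0.68 to -0.59), with 15 members lower by 1.5-fold, where 3.62% of all genes were. In myoid cells the ratio was -0.79 (-0.85 to -0.72), with 22 of 24 lower by 1.5-fold, where 4.67% of all genes were. Cdk2-HET over Cdk2-WT had S phase list ratios of -0.37 in stromal and -0.29 in myoid cells. In Sertoli cells the Cdk2-Y15S ratio was -0.19, and in germ cells 0.26 (0.19 to 0.33).

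List-high cells were then divided by whether they also had 5 or more S phase UMIs of 3000. Cells high for both lists made up 7.48% of Cdk2-Y15S, 12.0% of Cdk2-HET and 14.6% of Cdk2-WT myoid cells, and 5.23%, 7.20% and 9.58% of stromal cells. Cells high for the mitosis list alone, at 11.6%, 13.6% and 12.0% of myoid cells and 7.13%, 9.27% and 6.89% of stromal cells, had intervals that overlapped between libraries. Such overlap does not show that the shares are equal, and no interval of their differences was made. The share of cells high for S phase, with or without the mitosis list, itself differed, at 15.8%, 25.9% and 31.4% of myoid cells and 12.9%, 16.2% and 25.7% of stromal cells in Cdk2-Y15S, Cdk2-HET and Cdk2-WT. Cells high for both are part of that share, and whether its difference accounts for theirs was not tested. By count, the lower list-high share of Cdk2-Y15S than of Cdk2-WT lay in cells high for both lists. For these cells the intervals of Cdk2-Y15S and Cdk2-WT did not overlap. They were 5.62 to 9.72 and 11.9 to 17.6 in myoid cells, and 4.17 to 6.47 and 8.01 to 11.3 in stromal cells. In Sertoli cells both groups were near equal between libraries (18.8%, 19.7% and 18.8% high for both). Cells high for the S phase list alone were fewer in Cdk2-Y15S Sertoli cells, at 15.8% against 22.5% in Cdk2-HET and 22.7% in Cdk2-WT. Sertoli cells with fewer than 5 mitosis-list UMIs averaged 3.46, 4.34 and 4.31 S phase UMIs of 3000 in Cdk2-Y15S, Cdk2-HET and Cdk2-WT. The cut of 5 lies near these means, so it does not mark off a separate group of Sertoli cells. Other cuts for the S phase list were not tried in any class. These tiers and this division were chosen after earlier values were seen.

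**Figure D4:**
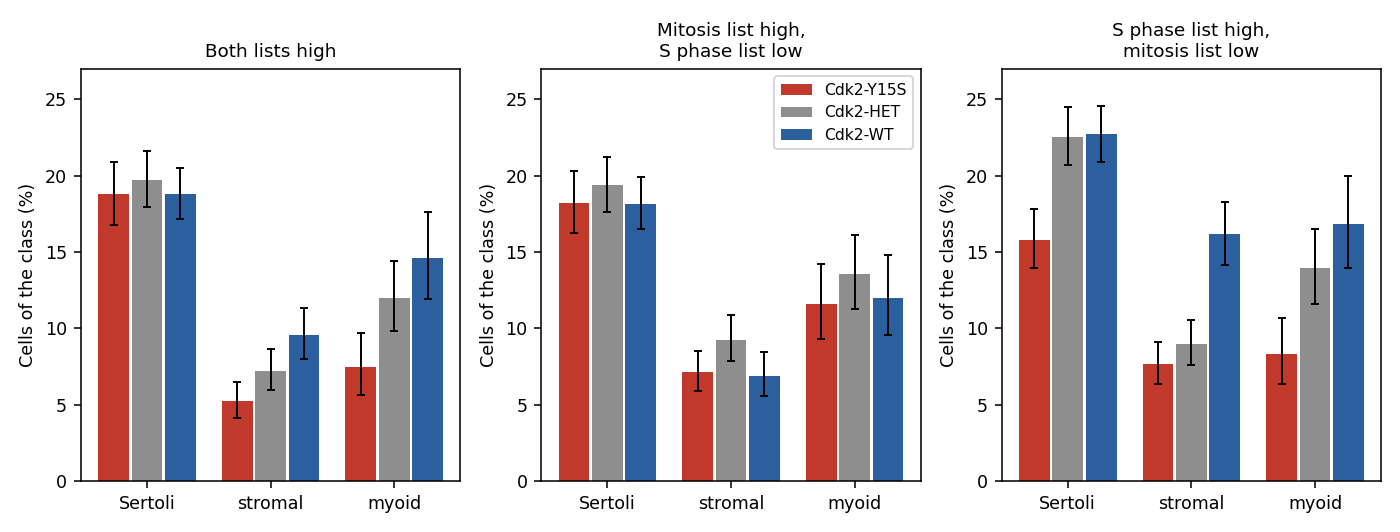
Share of cells (%) that were high for both lists (left), for the mitosis list alone (middle) and for the S phase list alone (right), each at 5 or more UMIs of 3000, in Sertoli, stromal and myoid cells, with Cdk2-Y15S, Cdk2-HET and Cdk2-WT from left to right and exact binomial 95% intervals. In stromal and myoid cells the Cdk2-Y15S bars are lowest in the left and right panels, while in the middle panel the intervals of Cdk2-Y15S and Cdk2-WT overlap.

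In Sertoli cells 0 members were past 1.5-fold between Cdk2-Y15S and Cdk2-WT in either direction, where 7.89% of all genes were higher and 3.39% lower. Counting intervals lay above 0 in 7 members and below 0 in 8, where those of 29.1% and 16.9% of all genes did. Top2a was highest by ratio, at 234 CPM in Cdk2-Y15S, 190.0 CPM in Cdk2-HET and 158 CPM in Cdk2-WT (Cdk2-Y15S over Cdk2-WT 0.56, 0.48 to 0.65). The cytokinesis genes Anln, for the ring protein anillin (27.5, 26.0 and 19.1 CPM), Prc1 (114, 99.5 and 84.8 CPM) and Kif23 (54.2, 52.2 and 43.0 CPM) followed, and the midzone group as a whole had a log2 ratio of 0.21 (0.14 to 0.28). Lowest were Cdk1, at 114, 155 and 143 CPM in Cdk2-Y15S, Cdk2-HET and Cdk2-WT (-0.33, -0.43 to -0.23), Aurkb (36.6, 47.9 and 46.0 CPM; -0.33) and Pttg1 (90.4, 116 and 109.7 CPM; -0.28). The anaphase genes together had -0.15 (-0.20 to -0.11), with Cdc20 at 65.1, 95.03 and 77.7 CPM and Ube2c at 374, 497 and 402 CPM. Cks2 was again the most abundant member, at 463, 541 and 475 CPM, and was found in 84.1%, 87.9% and 87.5% of cells called list-high by the other 38 genes. Of the other abundant members, Birc5 had 161, 194 and 176 CPM, Cenpa 239.6, 282 and 251 CPM, and Tpx2 70.6, 79.8 and 71.6 CPM. Ccnb1 stood at 52.8, 61.5 and 46.8 CPM and Mki67 at 78.5, 78.4 and 71.9 CPM.

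Macrophage markers were lower in the same Cdk2-Y15S Sertoli cells (4.29 CPM summed over 7 genes, with Csf1r at 0, against 30.8 CPM in Cdk2-HET and 23.5 CPM in Cdk2-WT), as were erythroid markers (43.4, 154 and 151 CPM over 5 genes) and fetal Leydig markers (73.3, 171 and 198 CPM over 5 genes). Their part in the Sertoli values was not tested. Median mitochondrial shares of Sertoli cells were 6.70%, 5.92% and 6.22%. In Cdk2-HET 37 of 39 members were above Cdk2-WT, with a median log2 ratio of 0.17 against 0.06 over all 11205 genes with at least 50 UMIs. The share of all genes above 0 was not counted. Past 1.5-fold were 0 members, where 3.53% of all genes were higher by as much and 2.12% lower. The higher level of Cdk2-HET was not seen in cells with at most 5% mitochondrial UMIs (157 Cdk2-Y15S, 513 Cdk2-HET and 396 Cdk2-WT cells), where its log2 ratio over Cdk2-WT was -0.00094. For Cdk2-Y15S over Cdk2-HET the list had -0.19 (-0.21 to -0.17), with 0 members past 1.5-fold either way, where 4.1% of all genes were higher and 2.67% lower.

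Stromal cells had 0 members higher by 1.5-fold in Cdk2-Y15S than in Cdk2-WT and 2 lower, where 7.1% and 3.62% of all genes were. These were Ndc80, the kinetochore gene (8.87, 14.4 and 14.3 CPM in Cdk2-Y15S, Cdk2-HET and Cdk2-WT; -0.69, -1.11 to -0.27), and Aurkb (25.8, 38.4 and 38.8 CPM; -0.59, -0.84 to -0.34). Bub1 followed at 7.03, 9.24 and 10.3 CPM (-0.55). The passenger complex was lowest of the roles, at -0.28 (-0.37 to -0.19), and Cdk1 had 63.0, 96.2 and 85.8 CPM (-0.45). Ccnb1 stood highest, at 32.3, 45.1 and 26.0 CPM (0.31, 0.05 to 0.57), then the cytokinesis gene Ect2 (7.03, 10.3 and 5.93 CPM; 0.24) and Anln (14.7, 15.4 and 12.5 CPM; 0.23), whose intervals span 0. Cdc20 had 41.9, 64.8 and 45.0 CPM, Mki67 41.9, 53.5 and 46.9 CPM, and Top2a 106, 131 and 116 CPM. Of the most abundant members in their roles, Cks2 had 209, 298 and 222 CPM, Birc5 114, 161 and 136 CPM, Cenpa 106, 163 and 108 CPM, and Ube2c 106, 162 and 108 CPM. Nusap1 had 39.04, 45.0 and 36.2 CPM and Prc1 40.0, 56.2 and 43.7 CPM.

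In Cdk2-HET stromal cells 5 members were higher than in Cdk2-WT by 1.5-fold, where 4.32% of all genes were, and 0 lower, where 2.36% were. They were Ccnb1 (0.79), Ect2 (0.79), Kif20a, a midzone kinesin gene (0.67), Plk1 (0.61) and Cenpa (0.60). In these libraries 34 members had intervals below 0 for Cdk2-Y15S over Cdk2-HET, where 13.3% of all genes had, and 0 above 0, where 10.9% had. Of the members 10 were lower by 1.5-fold, where 1.87% of all genes were, 0 higher, where 3.46% were, and a list ratio of -0.48 (-0.51 to -0.45). Macrophage markers summed to 56.6, 39.3 and 17.3 CPM in Cdk2-Y15S, Cdk2-HET and Cdk2-WT stromal cells and Sertoli markers to 401, 338 and 253 CPM. The 7 stromal markers themselves summed to 3741, 3515 and 3015 CPM, and median depth was 5497, 5617 and 4954 UMIs. Their part in the stromal values was not tested.

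Myoid cells had 0 members higher by 1.5-fold in Cdk2-Y15S than in Cdk2-WT and 3 lower, where 5.31% and 4.67% of all genes were. The 3 were Mad2l1 (22.4, 28.9 and 36.6 CPM in Cdk2-Y15S, Cdk2-HET and Cdk2-WT; -0.70, -1.11 to -0.31), Aurkb (34.4, 52.9 and 54.4 CPM; -0.66, -0.99 to -0.34) and Spc25 (66.8, 104 and 106 CPM; -0.66, -0.90 to -0.43). The passenger complex again stood lowest of the roles (-0.37, -0.49 to -0.26), with Birc5 at 152, 219 and 193 CPM. Highest were Aurka (26.1, 32.6 and 19.7 CPM; 0.41, -0.04 to 0.86), Ccnb1 (54.5, 58.0 and 41.5 CPM; 0.39, 0.09 to 0.71) and Ccnb2 (94.7, 109.5 and 77.0 CPM; 0.30). The anaphase genes were higher together (0.17, 0.06 to 0.27), with Ube2c at 224, 233 and 194 CPM and Cdc20 at 67.1, 81.8 and 64.6 CPM. Cdk1 had 96.8, 135 and 128 CPM (-0.41), Mki67 59.5, 84.5 and 77.6 CPM (-0.38) and Top2a 132, 195 and 147 CPM. Of the abundant members, Cks2 had 313, 382 and 296 CPM, Cenpa 195, 215 and 164 CPM, Prc1 66.3, 75.5 and 57.9 CPM, and Nusap1 61.1, 69.3 and 60.6 CPM.

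List-high myoid cells were called here by the other 38 members, so that a gene does not choose its own cells. Of the 32 members with at least 50 UMIs, 27 had more UMIs per cell in Cdk2-Y15S than in Cdk2-WT (median log2 ratio 0.45). The same count over all genes was not made. The list level in list-high myoid cells was itself higher by 0.41, so the count is no separate result. Ccnb1 averaged 0.729 UMIs of 3000 per list-high Cdk2-Y15S cell and 0.295 per Cdk2-WT cell (1.30, 0.79 to 1.83). Ccnb2 averaged 1.22 and 0.735 (0.73), Cenpa 2.52 and 1.55 (0.70), Nusap1 0.808 and 0.500 (0.69), and Ube2c 2.52 and 1.64 (0.62). Aurkb, at 0.354 and 0.412, and Spc25, at 0.746 and 0.822, had intervals that span 0 there. In stromal list-high cells Ccnb1 was also highest (0.81, 0.39 to 1.25) and Aurkb lowest (-0.52, -0.95 to -0.11). In Sertoli list-high cells Anln (0.56), Top2a (0.51) and Prc1 (0.48) were highest and Kif20a (-0.82, -1.45 to -0.25) lowest.

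Cdk2-HET myoid cells had 4 members higher than Cdk2-WT by 1.5-fold, where 4.31% of all genes were, and 0 lower, where 2.05% were: Ttk, a checkpoint kinase gene (0.73), Aurka (0.72), Kif20a (0.71) and Plk1 (0.68). Of the 39 members 34 had ratios above 0, with a median log2 ratio of 0.28 against 0.07 over all 9288 genes with at least 50 UMIs. The share of all genes above 0 was not counted. Mad2l1 was lowest at -0.34 (-0.69 to 0.01). For Cdk2-Y15S over Cdk2-HET the list had -0.32 (-0.35 to -0.28), with 7 members lower by 1.5-fold, where 3.41% of all genes were, and 0 higher, where 2.43% were. The 7 were Ttk (-0.98), Plk1 (-0.77), Bub1 (-0.66), Tacc3 (-0.65), Spc25 (-0.64), Aurkb (-0.62) and Cdca8 (-0.59). Macrophage markers summed to 3.91 CPM over 7 genes in Cdk2-Y15S myoid cells, with Adgre1 and C1qb at 0, against 34.9 CPM in Cdk2-HET and 63.3 CPM in Cdk2-WT. The 5 myoid markers summed to 376, 298 and 243 CPM in Cdk2-Y15S, Cdk2-HET and Cdk2-WT, and the part of either list in the values was not tested.

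**Figure D5:**
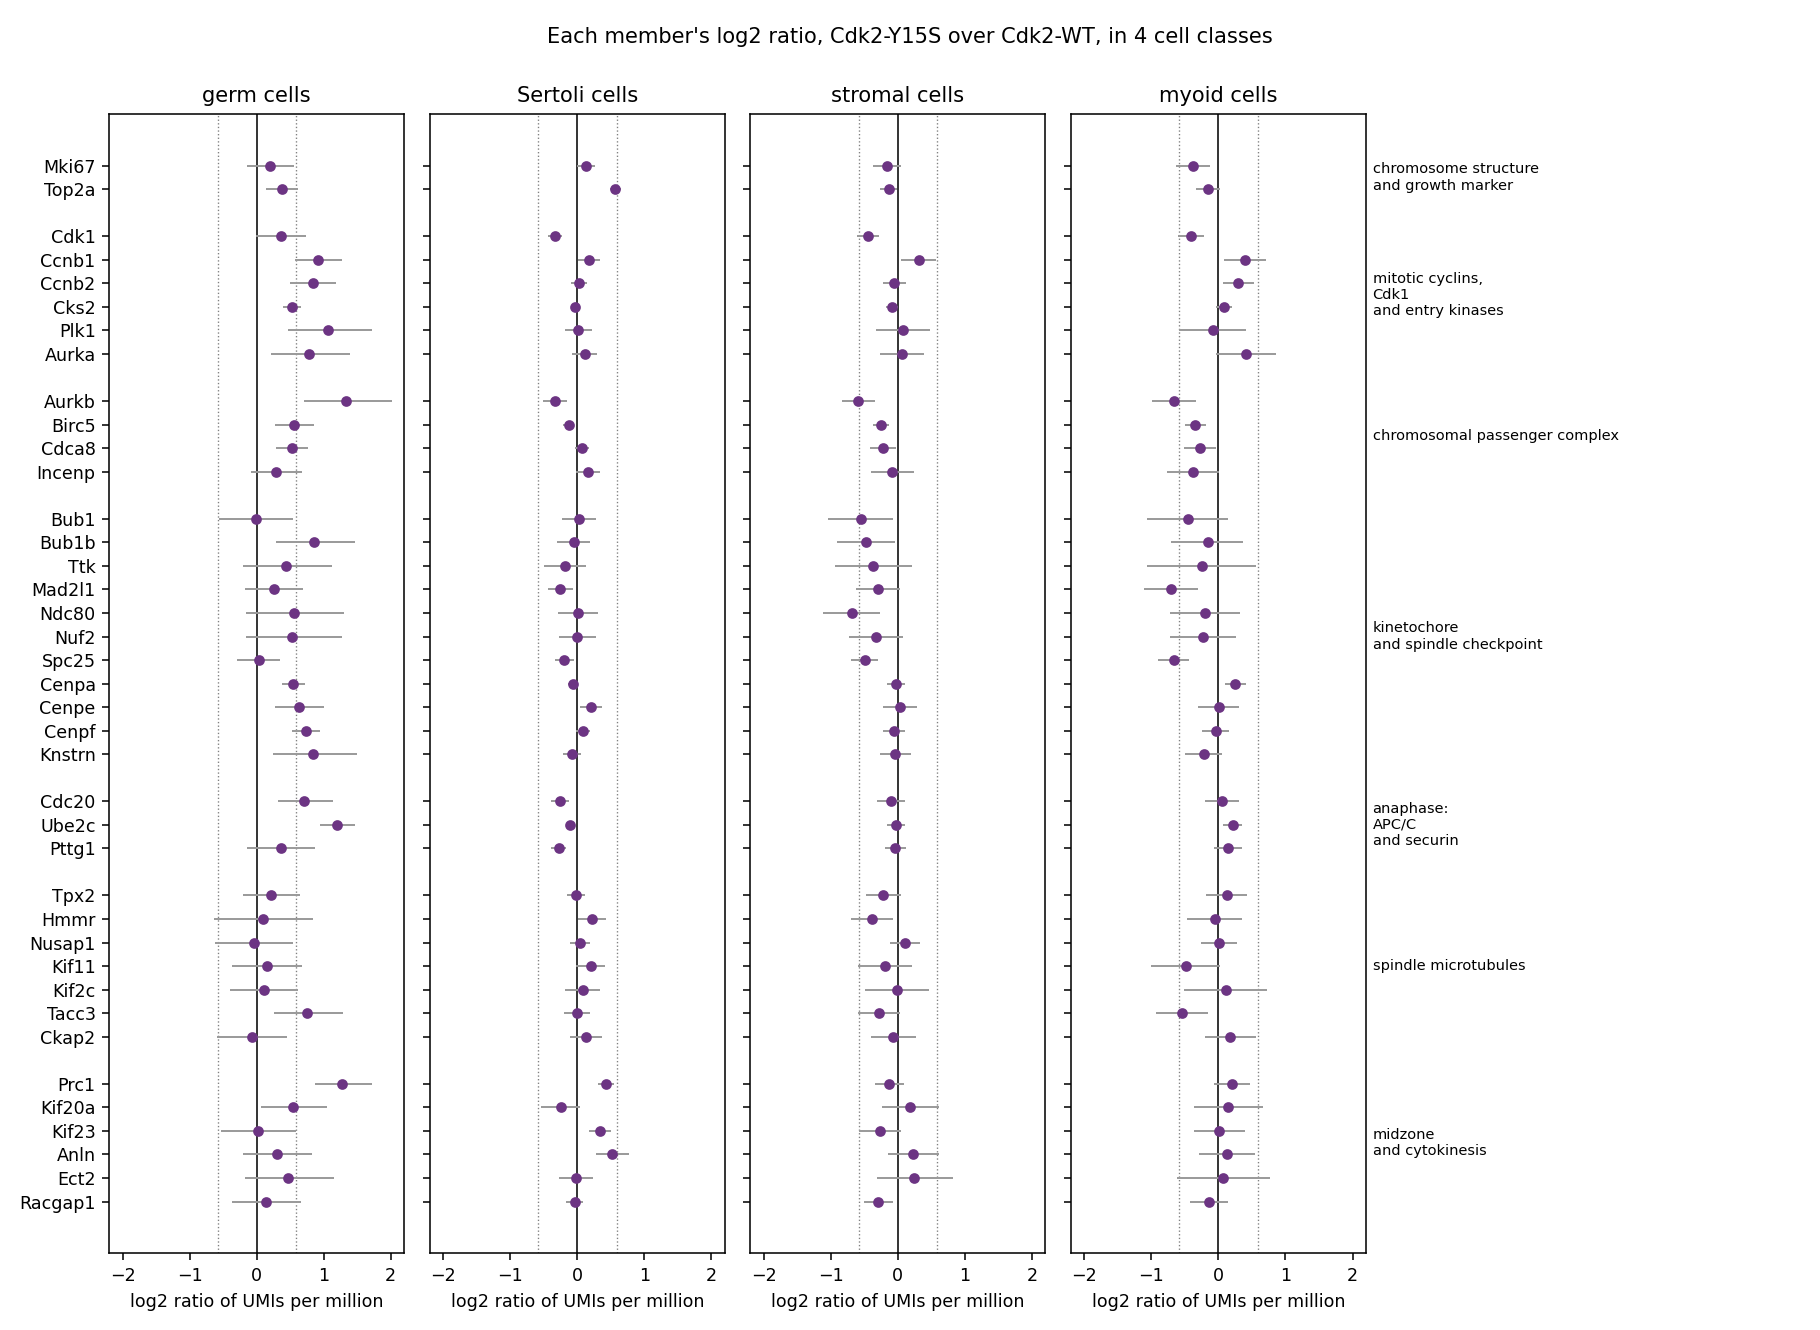
Log2 ratio of CPM, Cdk2-Y15S over Cdk2-WT, for each of the 39 members (rows, grouped by role) in germ, Sertoli, stromal and myoid cells, with 95% counting intervals; dotted lines mark 1.5-fold in either direction. Most points in germ cells lie right of 0 (36 of 39), points in Sertoli cells lie within 1.5-fold, and Aurkb lies right in germ cells (1.33) and left in stromal (-0.59) and myoid cells (-0.66).

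A further 68 genes of mitosis, listed apart from the members, had ratios near those of the members in germ and Sertoli cells. In germ cells 52 of the 68 had at least 50 UMIs over both libraries, 14 were higher in Cdk2-Y15S by 1.5-fold and 0 lower, where 11.7% and 15.1% of all genes were, and their sum had a log2 ratio of 0.47 (0.42 to 0.52). The highest were Cdca3, an entry factor gene (193 CPM in Cdk2-Y15S, 81.6 CPM in Cdk2-WT; 1.24), and Ccnf, cyclin F (89.2 and 42.9 CPM; 1.05). The lowest were the condensin genes Ncaph (22.1 and 31.3 CPM; -0.50) and Ncapd2 (42.8 and 54.4 CPM; -0.34), with intervals that span 0. In Sertoli cells the 68 genes had a log2 ratio of 0.01 (-0.01 to 0.03), 1 gene higher by 1.5-fold and 1 lower, where 7.89% and 3.39% of all genes were. The 2 highest by ratio were Kntc1, a kinetochore gene (12.9 and 8.28 CPM in Cdk2-Y15S and Cdk2-WT; 0.64), and the kinesin gene Kif14 (6.96 and 4.69 CPM; 0.57), and the 2 lowest the centromere gene Cenpn (19.4 and 29.2 CPM; -0.59) and Fam64a (26.9 and 37.8 CPM; -0.49). In stromal and myoid cells the further genes were lower than the members, with log2 ratios of -0.32 (-0.35 to -0.30) and -0.27 (-0.31 to -0.24), and 10 of 67 and 9 of 61 measured genes lower by 1.5-fold, where 3.62% and 4.67% of all genes were. They had 0 and 1 higher, where 7.1% and 5.31% of all genes were.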

How the data were processed

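Single-cell RNA counts came from 3 droplet libraries of mouse testis (10X Genomics 3′ chemistry, per the labels' protocols), with the build mm10, Seurat and Cell Ranger 2.1.0 named in the submitters' processing notes. The deposited values are raw counts of UMIs per gene and cell; barcode suffixes give the library, per the labels. The authors also deposited UMI counts of 141 germ cells, of whose 10451 genes 10450 were found by symbol and equalled the matrix, and a table of their clusters. From there, somatic cells were kept at 500 or more genes and at most 10% mitochondrial UMIs, and doublets (53, 83 and 85 in Cdk2-Y15S, Cdk2-HET and Cdk2-WT) were removed with Scrublet in Scanpy 1.11.5, at an expected 6% of cells. Classes needed, for Sertoli cells, 3 or more UMIs of their 4 marker genes with at most 2 of Col1a1, Col1a2, Col3a1 and Dcn; for stromal and myoid cells, 5 or more of those collagen-rule UMIs, with 8 or more of Acta2, Myh11 and Tagln for myoid; and 5.66%, 4.46% and 4.31% of kept cells in Cdk2-Y15S, Cdk2-HET and Cdk2-WT fell in none. Deposited germ cells were not filtered. Counts were summed per library and class. Log2 ratios add 0.5 UMI to each count. Their intervals are exact conditional binomial, those of CPM exact Poisson and those of shares Clopper-Pearson, at 95%. Intervals of ratios and CPM take each UMI as independent and leave out the spread between cells. With 1 library per genotype no test was run. Genes were called at 1.5-fold among those with 50 or more UMIs over both libraries. Every member is accounted for; values per library are printed for the 3 highest and 3 lowest ratios in each class, the most abundant member of each role, and Mki67, Top2a, Cdk1, Ccnb1 and Cdc20, and others were named after their values were seen. The members and gene lists were chosen with earlier results of these data known. Functions were tested on simulated counts. SciPy 1.17.1 and pandas 2.3.3 were used.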

Additional observations from a re-analysis of the deposited data

Results flagged for a closer look

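Aurkb went opposite ways in germ and mesenchymal cells of the same libraries, the only member past 1.5-fold in both directions. Its log2 ratio of Cdk2-Y15S over Cdk2-WT was 1.33 in germ cells, -0.59 in stromal cells and -0.66 in myoid cells. The difference between the classes was not tested, since each genotype has 1 library. Outside germ cluster A the germ ratio of Aurkb was 0.51, with an interval (-0.13 to 1.24) that spans 0. Groups of 1 library allow no search for outlying samples.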

How the results depend on the processing

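Of 49 list ratios under other settings 33 stayed within the counting interval of the reported value. Among the 33 the Sertoli ratio of Cdk2-Y15S over Cdk2-WT turned its sign with cells weighted equally, at -0.010. The germ ratio of Cdk2-Y15S over Cdk2-WT was 0.84 at a mitochondrial limit of 10%, -0.21 with clusters B and C weighted equally and -0.011 outside cluster A, a setting chosen after seeing the data that removes only Cdk2-WT cells. The Sertoli ratio of Cdk2-Y15S over Cdk2-WT was -0.015 with no cell filter, -0.044 at a mitochondrial limit of 5%, -0.092 with other UMI cuts and -0.062 centred on the median of all genes. That of Cdk2-HET over Cdk2-WT was -0.00094 at the 5% limit, 0.14 with other UMI cuts, 0.14 centred and 0.17 with cells weighted equally. Weighting cells equally gave -0.23 (Cdk2-Y15S) and 0.28 (Cdk2-HET) in stromal cells. Other UMI cuts gave -0.19 (Cdk2-Y15S) and 0.16 (Cdk2-HET) in myoid cells, and centring 0.19 (Cdk2-HET). The causes were not tested.

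At a minimum of 200 UMIs, 7 of 16 germ members were higher in Cdk2-Y15S (10.7% of all genes were), 1 of 32 stromal members lower in Cdk2-Y15S (2.56%) and 2 of 30 myoid members higher in Cdk2-HET (1.32%). At a fold of 2 these counts were 4 (2.78% of all genes), 0 (0.581%) and 0 (0.581%), with 0 myoid members lower in Cdk2-Y15S (0.948%) and 0 stromal members higher in Cdk2-HET (0.844%). The germ difference in list-high share was 4.35 percentage points at a threshold of 3, 39.6 at 10 and 29.3 with shallower thinning. The level ratio per list-high cell of Cdk2-Y15S over Cdk2-WT at thresholds of 3 and 10 was 0.50 and 0.045 in germ and -0.020 and 0.020 in Sertoli cells, and at 3 was 0.032 in stromal and 0.30 in myoid cells. For Cdk2-HET it was 0.18 and 0.13 in stromal and 0.19 and 0.21 in myoid cells, and 0.11 in Sertoli cells at 10. Reading the level from members not used to pick the cells, chosen after seeing the data, gave 0.077 (Cdk2-Y15S) and 0.12 (Cdk2-HET) in Sertoli cells.

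No paired analysis was possible because each genotype has 1 library and the labels carry no replicate numbers; no replicate was left out, since none exists.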
